A study of Mus musculus with 10 samples.

Results

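Cytosolic ribosomal protein genes were examined in the hearts of mice trained on a treadmill. They were chosen by name: protein-coding genes whose GENCODE symbol begins with Rpl, Rps or Rplp followed by a number and at most the letter a, x or l, and Rpsa, the gene of the laminin receptor protein of the small subunit. This gave 81 genes among the 56748 identifiers of the files, 49 of the large and 32 of the small subunit. RNA was sequenced from whole hearts, ventricles and both atria included, of wild-type male C57BL/6 mice. In the training group, labelled Exercise, 5 mice had run on a motorised treadmill at 15 m/min for 120 min a day, 5 days a week, over 8 weeks, and the 5 mice labelled Control had stayed sedentary. Each library came from 1 heart, and no genetic change distinguished the groups.

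The cytosolic ribosome is built from a large subunit, which forms the peptide bonds, and a small subunit, which decodes the messenger RNA. Its proteins are needed in near-equal amounts, and their messenger RNAs are short, abundant and carry a pyrimidine tract at the 5′ end through which mTOR signaling sets how well they are translated. In striated muscle a paralog of Rpl3, Rpl3l, is made as well, and its protein can take the place of Rpl3 near the peptidyl transferase centre. The comparison of trained with sedentary hearts asks whether the growth of the heart under training went with a change in these genes.

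The training libraries held 29461697 to 35945417 reverse-strand counts on genes and the sedentary libraries 35196993 to 39431030. CPM are counts relative to each library's TMM-scaled total, TPM are the authors' length-corrected RSEM values, and a gene was called at a false discovery rate (FDR) below 0.1 in the quasi-likelihood test of edgeR. All 10 cardiomyocyte markers of a hand-written list were detected, with a summed level of 65120 to 69695 CPM in the training and 68590 to 78579 CPM in the sedentary hearts. All 10 had a log2 fold change below 0 (median −0.11), with Actc1, cardiac actin, called lower (−0.38), and DESeq2 called 4. The 10 atrial markers summed to 5460 to 8159 CPM in the training and 3015 to 7252 CPM in the sedentary hearts. None of them was at 0, all 10 had a log2 fold change above 0, and 5 were called higher. The fibroblast markers had 3 of 10 called higher and none at 0, with summed levels of 3213 to 4213 against 2899 to 3357 CPM. Of the endothelial markers, 3 of 10 were called lower, with sums of 1000.3 to 1072 against 1110.4 to 1157 CPM. Mural markers had 1 of 10 called higher and 1 lower, and skeletal muscle markers 2 of 7 tested called lower, Acta1 and Ckm, which cardiomyocytes express as well. Of 9 adipocyte markers tested, 8 had a log2 fold change above 0 (median of the list 0.65) and none of these was called; Fabp4, which capillary endothelium also expresses, was called lower (−0.24). Macrophage, lymphocyte and erythroid markers had none called by edgeR or DESeq2, with 0, 0 and 1 at an unadjusted p below 0.05 in edgeR. In whole hearts, fewer cells of a type and less RNA per cell cannot be told apart.

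Rpl3 and Rpl3l differ enough in sequence for reads to tell them apart, as do Rps4x and its autosomal paralog Rps4l. Their coding sequences were aligned in the GENCODE M39 transcripts on GRCm39, and the first 120 coding bases of both pairs are shown because the ratio of each paralog to its gene is compared below. Bases that differ within a pair are in capitals.
Rpl3: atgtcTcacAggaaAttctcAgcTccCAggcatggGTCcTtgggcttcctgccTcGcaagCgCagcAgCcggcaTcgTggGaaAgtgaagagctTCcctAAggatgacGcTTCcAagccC
Rpl3l: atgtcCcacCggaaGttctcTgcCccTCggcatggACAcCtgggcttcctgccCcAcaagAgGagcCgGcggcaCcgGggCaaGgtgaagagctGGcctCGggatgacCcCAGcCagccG
Rps4x: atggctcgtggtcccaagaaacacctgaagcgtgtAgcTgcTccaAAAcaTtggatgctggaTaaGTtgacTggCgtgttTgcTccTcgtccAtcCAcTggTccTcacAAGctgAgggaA
Rps4l: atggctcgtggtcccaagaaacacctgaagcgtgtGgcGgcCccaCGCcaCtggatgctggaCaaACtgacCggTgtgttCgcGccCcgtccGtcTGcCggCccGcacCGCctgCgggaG
In these stretches the Rpl3 pair differed at 31 and the Rps4 pair at 26 of 120 bases. Over all aligned coding bases 74.8% were identical for Rpl3 and Rpl3l (899 of 1202) and 80.0% for Rps4x and Rps4l (629 of 786). None of the 8 paralog pairs examined shared a coding window of 100 bases, the read length, so a read lying within the coding sequence could not match both genes exactly.

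For most ribosomal protein genes no difference between the groups was detected. Of the 81 genes, 78 were tested and 4 were called: Rpl3, Rps14 and Rpl15 were higher and Rps13 was lower in the training hearts. Across all 15454 genes tested, 7.01% were called, 2.75% higher and 4.26% lower, so that 4 of 78 members lay near the share of all genes. The median log2 fold change was 0.0014 over the 78 members and 0.00026 over all genes tested. With library totals in place of TMM factors 9 members were called higher and 0 lower (all genes 6.66% higher, 2.19% lower), and at that scaling 25 of 78 members had an unadjusted p below 0.05 and the median of all genes was 0.053. DESeq2's Wald test called 5 members higher, Rpl6 and Rpl7 besides the 3 above, and 1 lower (all genes 3.99% and 5.54%). At an unadjusted p below 0.05 in the edgeR test lay 20 of the 78 members and 3087 of the 15454 genes (20% of them). Fold changes of members ran from −0.30 to 0.30, and 65 of 78 were within 0.15 of 0 on the log2 scale. The plot of fold changes by subunit shows them all.

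**Figure D1:**
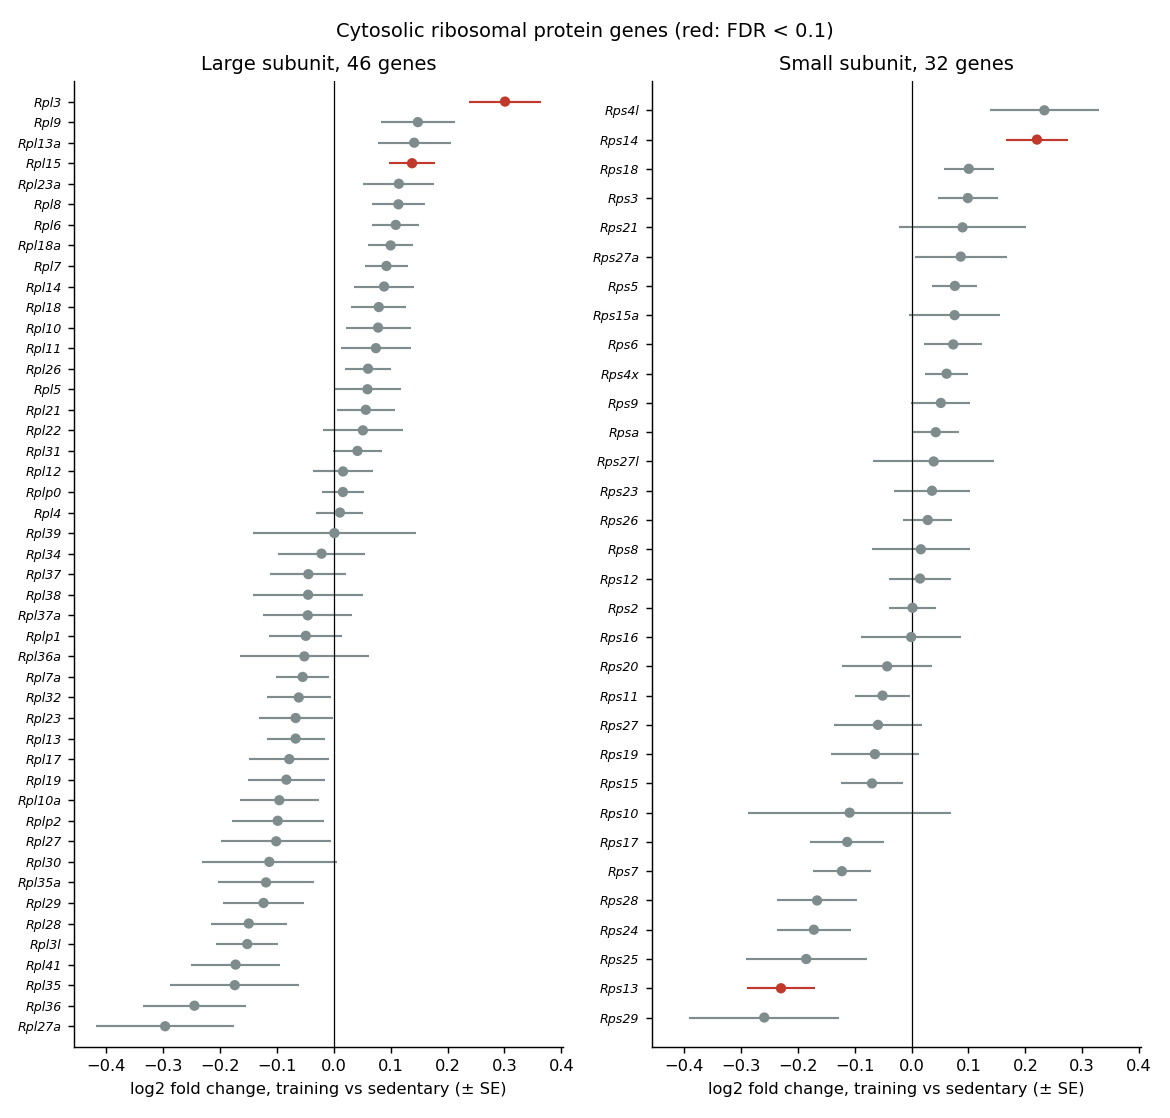
Training over sedentary log2 fold change with its standard error (horizontal axis) for the 46 large and 32 small subunit genes tested (vertical axis, sorted). Red marks the 4 genes called at an FDR below 0.1, and the other 74 lie on both sides of 0.

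Both subunits lay around 0. In the large subunit 22 genes lay above and 24 below 0, with a median log2 fold change of −0.033, and 2 were called higher. In the small subunit 18 lay above and 14 below 0, with a median of 0.016, and 1 was called higher and 1 lower. The difference between these medians was not tested. As a share of all counts on genes, the 81 genes took 0.905% to 1.08% in the training hearts (1.00 ± 0.0677%, SD, n = 5) and 0.908% to 1.01% in the sedentary hearts (0.969 ± 0.0405%, SD, n = 5). The groups overlapped. Genes of mitochondrial DNA took 20.4% to 21.9% of counts in the training and 20.7% to 23.6% in the sedentary hearts.

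Rpl3, whose protein lies next to the peptidyl transferase centre, rose most among the members (ENSMUSG00000060036, chr15:79961825-79976069 of GRCm39, minus strand). It was at 127, 133, 129, 119 and 119.7 CPM in training hearts 1 to 5 and 116, 96.6, 109, 99.2 and 89.8 CPM in sedentary hearts 1 to 5. Every training heart was above every sedentary heart, with sedentary heart 1 closest. Over all 15454 genes the groups did not overlap in 5.06%, 2.12% with training higher and 2.94% with training lower. Means were 126 ± 6.12 CPM (SD, n = 5) with training and 102 ± 10.4 CPM (SD, n = 5) without. Its log2 fold change was 0.30 (SE 0.0631, edgeR quasi-likelihood test, Benjamini-Hochberg adjusted p = 0.0246). It was called in 10 of 10 fits with 1 heart removed, and on RSEM's expected counts the log2 fold change was 0.21. When the score of the atrial markers entered the fit, it was 0.19 with an adjusted p of 0.392 in the edgeR test. That fit called 0.317% of all genes and none of the members, with 8 of 78 members at an unadjusted p below 0.05.

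Rpl3l, the muscle paralog (ENSMUSG00000002500, chr17:24946751-24955119 of GRCm39, plus strand), went the other way without being called. It was at 226, 193, 189.7, 209 and 197 CPM in training hearts 1 to 5 and 206, 237, 225, 233 and 227 CPM in sedentary hearts 1 to 5. Training hearts 1 and 4 and sedentary hearts 1 and 3 lay inside the range of the other group. The log2 fold change was −0.15 (SE 0.0543, edgeR quasi-likelihood test, Benjamini-Hochberg adjusted p = 0.143). Without training heart 1 it was −0.19 with an adjusted p of 0.0499 in the same edgeR test, and it was called without sedentary heart 1 as well. Per transcript length the muscle paralog was the more abundant of the pair in every heart. Rpl3l was at 161 ± 5.42 TPM (SD, n = 5) with training and 169 ± 5.26 TPM (SD, n = 5) without, and Rpl3 at 140.2 ± 9.28 TPM (SD, n = 5) with training and 114 ± 13.7 TPM (SD, n = 5) without. The ratio of their TPM was 1.16 ± 0.113 (SD, n = 5) in the training and 1.496 ± 0.185 (SD, n = 5) in the sedentary hearts.

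**Figure D2:**
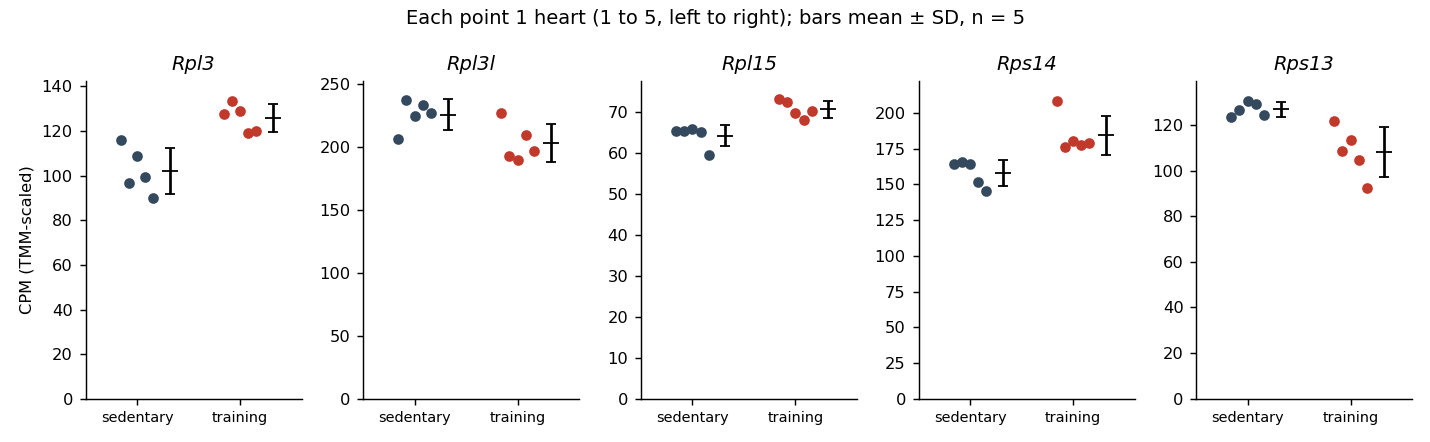
CPM (vertical axis, from 0) of Rpl3, Rpl3l, Rpl15, Rps14 and Rps13 in each heart, with hearts 1 to 5 from left to right within a group and bars for mean ± SD (n = 5). Rpl3, Rpl15 and Rps14 lie higher and Rps13 lower in all training hearts than in any sedentary heart, while the groups overlap for Rpl3l.

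The balance between Rpl3l and Rpl3 differed between the groups. Rpl3l counts per Rpl3 count were 1.78, 1.45, 1.47, 1.75 and 1.64 in training hearts 1 to 5 and 1.77, 2.46, 2.07, 2.35 and 2.53 in sedentary hearts 1 to 5. Training heart 1 (1.777) lay just above sedentary heart 1 (1.774), and the other 4 hearts of each group did not overlap. The mean ratio was 1.62 ± 0.154 (SD, n = 5) in the training and 2.24 ± 0.312 (SD, n = 5) in the sedentary hearts. On the log2 scale, with 0.5 added to counts, the ratio fell by 0.46 in training, to 0.728 of the sedentary value (exact two-sided permutation test over all assignments of the hearts, p = 0.0159, adjusted p = 0.0595 over the 5 pairs with at least 10 counts in every heart). The smallest p that this design allows is 0.00794. The difference kept its sign, with 0.0794 as the highest adjusted p of the exact permutation test, under all 12 alternatives without a pairing (RSEM counts, both strands, each heart left out). Atrial marker scores, the mean centred log2 CPM of the list, were set beside the ratio. They were negative in sedentary hearts 2 to 5, where the ratio was 2.07 to 2.53. In all training hearts and sedentary heart 1, with ratios of 1.45 to 1.78, the scores were positive. Sedentary heart 1, with the lowest sedentary ratio, had the highest sedentary score (0.279). Sedentary hearts 2 and 5, with the highest ratios, had the lowest scores (−0.892 and −0.706). Sedentary heart 3 had a lower ratio than sedentary heart 4 but also a lower score (−0.230 against −0.0344). Training hearts had scores of 0.0196 to 0.651, with no order of this kind (hearts 2 and 3, with the lowest ratios, had 0.0196 and 0.651). The relation of score and ratio was not tested. When the atrial score entered the fit, edgeR's log2 fold change of Rpl3l was −0.093 and that of Rpl3 0.19, neither called.

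The other pairs gave 1 more difference. Rpl7l1, a relative of the large subunit gene Rpl7, stood at 0.147, 0.159, 0.157, 0.145 and 0.145 in training hearts 1 to 5 and 0.154, 0.178, 0.172, 0.168 and 0.171 in sedentary hearts 1 to 5 counts per Rpl7 count. Only training hearts 2 and 3 were above sedentary heart 1, the lowest of its group. The log2 ratio fell by 0.16 (exact permutation p = 0.0238, adjusted p = 0.0595 over the 5 pairs), with 0.0992 as the highest adjusted p under the 12 alternatives without a pairing. Neither gene was called by itself in the edgeR test: Rpl7 had a log2 fold change of 0.09 and Rpl7l1, which the naming rule leaves out, of −0.07. DESeq2 called Rpl7 higher (adjusted p = 0.0971), and so did the edgeR fits with library totals and with the length trend removed. Rpl7 was at 253, 244, 241, 244 and 238 CPM in training hearts 1 to 5 and 239, 229.6, 232, 228 and 215 CPM in sedentary hearts 1 to 5. Sedentary heart 1 exceeded training heart 5, and the groups were apart otherwise.

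Rps4l counts per Rps4x count were 0.0633, 0.0750, 0.0765, 0.0852 and 0.0737 in training hearts 1 to 5 and 0.0612, 0.0741, 0.0508, 0.0701 and 0.0757 in sedentary hearts 1 to 5. The groups overlapped, and the log2 ratio differed by 0.18 (exact permutation p = 0.167, adjusted p = 0.278). Rps4l itself was at 18.9, 21.1, 21.9, 23.999 and 19.9 CPM in training hearts 1 to 5 and 16.4, 20.1, 14.1, 19.6 and 20.0 CPM in sedentary hearts 1 to 5, the second highest fold change among the members (0.23, SE 0.0963, edgeR quasi-likelihood test, Benjamini-Hochberg adjusted p = 0.196). Rps4x, its X-linked counterpart, was at 270.5 to 298 CPM with training and 264 to 279.8 CPM without, a log2 fold change of 0.06. Rps27l, a p53-responsive paralog of Rps27, gave 0.286, 0.290, 0.244, 0.241 and 0.291 in training hearts 1 to 5 and 0.269, 0.299, 0.245, 0.216 and 0.230 in sedentary hearts 1 to 5 counts per Rps27 count, with overlapping groups and a log2 difference of 0.11 (exact permutation p = 0.302, adjusted p = 0.377). Rps27l was at 46.0, 41.4, 37.2, 33.8 and 32.5 CPM in training hearts 1 to 5 and 40.5, 44.1, 37.6, 32.2 and 31.5 CPM in sedentary hearts 1 to 5. For Rpl22l1, the paralog of Rpl22, the ratio was 0.138, 0.116, 0.133, 0.114 and 0.127 in training hearts 1 to 5 and 0.136, 0.115, 0.126, 0.118 and 0.0861 in sedentary hearts 1 to 5. Here too the groups overlapped, with a log2 difference of 0.12 (exact permutation p = 0.405). Rpl22 lay at 81.7 to 113 CPM with training and 87.9 to 100.1 CPM without and Rpl22l1 at 10.4 to 15.6 CPM with training and 7.56 to 12.3 CPM without. Rpl10l and Rpl39l, paralogs known from testis, had 0 and 37 unique counts over all 10 hearts. With 3 counts as the floor, 0 counts allow up to 0.0761 to 0.102 CPM per library, counting error only.

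**Figure D3:**
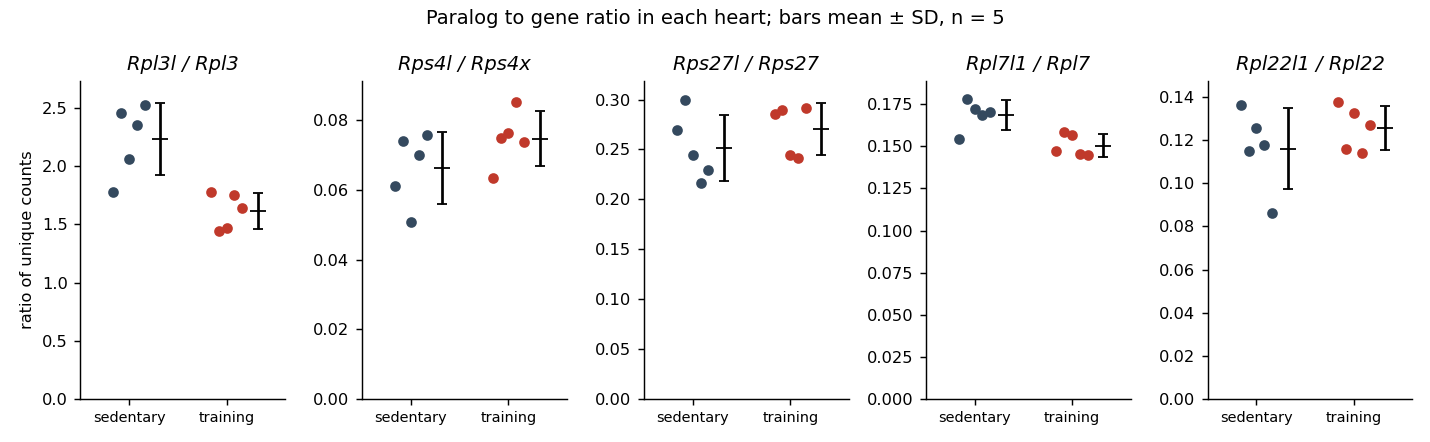
Ratio of unique counts of a paralog to those of its gene in each heart (vertical axes, from 0, without a unit), hearts 1 to 5 from left to right within a group, bars for mean ± SD (n = 5). Rpl3l per Rpl3 and Rpl7l1 per Rpl7 are lower in training on average. Training heart 1 for Rpl3l, and training hearts 2 and 3 for Rpl7l1, lie above sedentary heart 1. For the other 3 pairs the groups overlap throughout.

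Rps14, a protein of the small subunit platform (ENSMUSG00000024608, on chromosome 18), was the second member called higher. It was at 209, 176, 181, 178 and 179 CPM in training hearts 1 to 5 and 164, 166, 164, 152 and 146 CPM in sedentary hearts 1 to 5. Training heart 1 stood well above the other 4 training hearts, and these still exceeded every sedentary heart. The log2 fold change was 0.22 (SE 0.0547, edgeR quasi-likelihood test, Benjamini-Hochberg adjusted p = 0.0448). It was called in 9 of 10 fits with 1 heart removed; without sedentary heart 4 the adjusted p in that edgeR test was 0.101. On expected counts, where reads shared with copies are added, it was 0.19 with an adjusted p of 0.124 in edgeR.

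Rpl15, a large subunit protein (ENSMUSG00000012405, chr14:4198250-4201887 of GRCm39, plus strand), was at 73.1, 72.3, 69.6, 68.0 and 70.1 CPM in training hearts 1 to 5 and 65.4, 65.4, 65.7, 65.0 and 59.5 CPM in sedentary hearts 1 to 5. The groups did not overlap, but differed by only 0.14 on the log2 scale (SE 0.0402, edgeR quasi-likelihood test, Benjamini-Hochberg adjusted p = 0.0782). It was called in 1 of 10 fits with 1 heart removed, the fit without sedentary heart 1. Its expected counts were 2.76 times its unique counts, and on these the log2 fold change was 0.055 with an adjusted p of 0.477 in edgeR.

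Rps13 was the 1 member called lower (ENSMUSG00000090862, chr7:115930740-115933430 of GRCm39, minus strand). This small subunit gene was at 121, 109, 113, 105 and 92.4 CPM in training hearts 1 to 5 and 123, 127, 131, 129 and 124 CPM in sedentary hearts 1 to 5. Training heart 1 lay just below the lowest sedentary heart, and training heart 5 was lowest of all. The log2 fold change was −0.23 (SE 0.0594, edgeR quasi-likelihood test, Benjamini-Hochberg adjusted p = 0.0522). The call was kept in 7 of 10 fits with 1 heart removed, and lost without training heart 4, sedentary heart 3 or sedentary heart 4 (adjusted p up to 0.132 in the edgeR test). On expected counts it was −0.17 and still called.

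The 3 lowest fold changes did not pass the test. Rpl27a of the large subunit was at 57.7, 45.8, 57.4, 43.5 and 32.6 CPM in training hearts 1 to 5 and 57.9, 57.8, 62.7, 59.9 and 53.1 CPM in sedentary hearts 1 to 5, and Rps29 of the small subunit at 148, 116, 135, 112 and 77.5 CPM in training hearts 1 to 5 and 136, 152, 149, 148 and 118 CPM in sedentary hearts 1 to 5. Rpl36 of the large subunit was at 103, 84.5, 90.9, 84.6 and 65.4 CPM in training hearts 1 to 5 and 100.4, 106, 103, 106.8 and 90.7 CPM in sedentary hearts 1 to 5. In these 3 genes training heart 5 was the lowest of the 10 hearts, and training hearts 1 and 3 lay within the sedentary range. Their log2 fold changes were −0.30, −0.26 and −0.24, and the Benjamini-Hochberg adjusted p of the edgeR quasi-likelihood test was 0.191, 0.296 and 0.155.

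This spread was common to the members. Training heart 1 was the highest of the 10 hearts for 52 of the 78 genes, and training heart 5 the lowest for 50. Sedentary heart 5 was lowest for 20. The mean centred log2 CPM of the 78 genes was 0.159, 0.0045, 0.0406, −0.0468 and −0.200 in training hearts 1 to 5 and 0.0116, 0.0170, 0.0416, 0.0376 and −0.0651 in sedentary hearts 1 to 5. Thus the extreme values on both sides belonged to the training group, and the group means lay within 1 SD of each other (−0.0085 ± 0.131 against 0.0085 ± 0.0431, SD, n = 5). For 67 of 78 genes the SD of CPM was larger in training, with a median coefficient of variation of 9.61% against 5.29%. The same values over all genes tested are not given here, so this larger spread cannot be called particular to the members. Both subunits moved together: the large subunit mean was 0.168 in training heart 1 and −0.209 in training heart 5, and that of the small subunit 0.145 and −0.186. Training heart 1 had the largest share of multimapping reads (19.2%) and of reads on no gene (4.89%), and training heart 5 the fewest counts (29461697). Their part in this spread was not tested. Without training hearts 1 and 5, a fit chosen after seeing the data, Rpl3 was called higher and Rpl36 and Rps13 lower (1.24% and 2.16% of all genes).

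**Figure D4:**
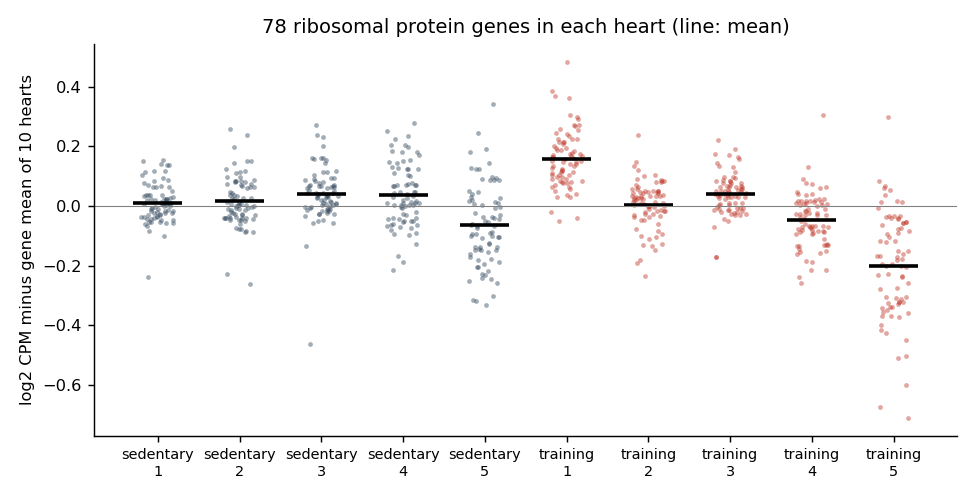
Log2 CPM of each of the 78 tested members minus its mean over the 10 hearts (vertical axis), by heart (horizontal axis), with the mean over members as a line. Training heart 1 (0.159) and training heart 5 (−0.200) stand at the extremes, and sedentary hearts 1 to 4 lie between 0.0116 and 0.0416.

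Fold changes went with transcript length. Members are short: the median length, as RSEM weights isoforms, was 622 bases, against 2392 for all genes tested. Of the 39 members at or below the median length, 25 lay below 0 in log2 fold change, with a median of −0.049; of the 39 longer members, 13 did, with a median of 0.043. Spearman's rho between length and fold change was 0.39 over the 78 members and 0.14 over all genes tested, as a description over genes that share the same 10 libraries. By heart, the rho between length and centred log2 CPM over members was −0.185, 0.278, −0.0383, 0.394 and 0.554 in training hearts 1 to 5, and between −0.404 and −0.105 in the sedentary hearts. In training hearts 2, 4 and 5, then, shorter members lay lower relative to longer ones. With each library's length trend removed across all genes, 17 members were called higher and 1 lower (3.23% and 4.74% of all genes), with a median of 0.058 over members and 0.0024 over all genes. Rpl3, Rps14, Rpl15 and Rps13 were among those 18. Whether a change in the samples or in the libraries underlies the length trend cannot be told apart here.

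Level also differed widely between members, per transcript length. The median over hearts and members was 287 TPM, against 5.67 TPM for all genes tested, and 76 of the 81 members had a mean of at least 100 TPM. Large subunit genes had a median of 279 and small subunit genes of 312 TPM. Highest were Rps27, the zinc finger protein of the small subunit, with 702, 658, 732, 636 and 522 TPM in training hearts 1 to 5 and 708, 639, 702, 629 and 573 TPM in sedentary hearts 1 to 5, and Rplp1 of the ribosomal stalk with 689, 689, 715, 620.3 and 569 TPM in training hearts 1 to 5 and 695, 646, 656, 615 and 588 TPM in sedentary hearts 1 to 5. Rplp0, the base of the stalk, followed with 558 to 614 TPM with training and 533 to 561 TPM without, then Rps24 with 443 to 596 TPM with training and 535 to 609 TPM without and Rps2 with 527 to 603 TPM with training and 506 to 567 TPM without. The ranges of these 5 genes overlapped with each other. Lowest among the tested members were Rps4l (24.1 to 33.4 TPM with training and 19.4 to 25.3 TPM without), Rpl39 of the exit tunnel (64.2 to 101 TPM with training and 61.3 to 87.7 TPM without) and Rps27l (80.8 to 105 TPM with training and 67.5 to 97.8 TPM without).

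The stalk, which recruits the elongation factors, showed no difference larger than the spread. Rplp0 was at 447, 453, 431, 436 and 419 CPM in training hearts 1 to 5 and 418, 431, 430.0, 443 and 439 CPM in sedentary hearts 1 to 5, with a log2 fold change of 0.02. Rplp1 lay at 206 to 274 CPM with training and 241 to 262 CPM without (−0.05) and Rplp2 at 94.5 to 134 CPM with training and 106.6 to 128 CPM without (−0.10). Rps6, the target of the S6 kinases, was at 117, 107.1, 111, 103 and 95.5 CPM in training hearts 1 to 5 and 101, 98.6, 106, 104 and 97.3 CPM in sedentary hearts 1 to 5, with overlapping groups and a log2 fold change of 0.07 (edgeR quasi-likelihood test, Benjamini-Hochberg adjusted p = 0.464). RNA levels say nothing on its phosphorylation. Rps24 had −0.17, Rps2 0.00, Rps27 −0.06 and Rpl39 0.00, none of them called.

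The level of some members depended on how reads were counted. Ribosomal protein genes have many processed pseudogenes, and 323 annotated ones were in the files. STAR counted only reads that map to 1 place, and RSEM divided shared reads among genes. Expected counts were a median of 1.24 times the unique counts over the 80 members with any count, below 1.1 times for 26 members and at least 2 times for 12. For 3 members the ratio was above 10. Rpl24 had 29 unique counts over all hearts but 316 to 342 TPM with training and 309 to 343 TPM without after RSEM (ratio 2074), Rps10 had a ratio of 152 and Rpl13a of 31.7. These 3 share 71.5%, 53.6% and 59.3% of their exon bases with another annotated gene on the same strand (Gm28037, Gm49804 and Gm45713), and STAR's gene counts leave out reads that overlap 2 genes as ambiguous. Rpl23a (3.19) and Rpl29 (2.95) came next, with no such overlap. In the genome 74 of 81 members had at least 1 window of 100 transcript bases with an exact copy elsewhere. Over the other 77 members, the ratio went with the percentage of windows inside 1 exon that had an exact copy (Spearman's rho 0.65, as a description over genes).

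**Figure D5:**
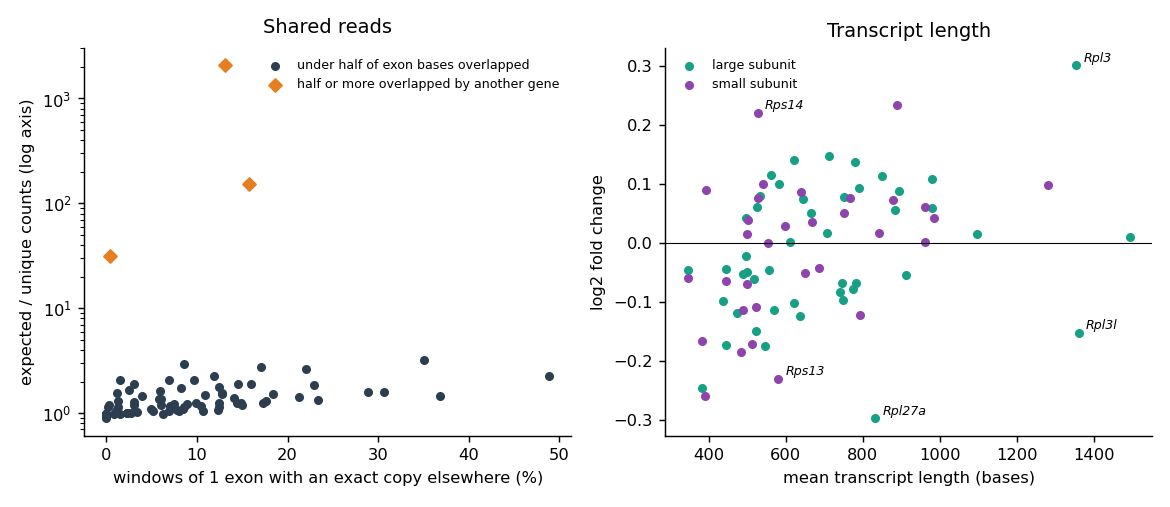
Left, expected over unique counts (log axis) against the percentage of 100-base windows lying in 1 exon that have an exact copy elsewhere in the genome, for 80 members; the 3 diamonds are Rpl24 (2074), Rps10 (152) and Rpl13a (31.7). Right, log2 fold change against mean transcript length in bases for the 78 tested members, where shorter genes lie lower (rho 0.39).

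On expected counts the picture of the class was alike, with 79 members tested, Rpl3 called higher, Rps13 called lower and a median log2 fold change of 0.0048 (all genes 2.35% higher, 3.86% lower). Rpl24 then had a log2 fold change of −0.062, Rps10 of 0.038, Rpl13a of 0.10 and Rpl29 of −0.028. Rpl23a depended on the counting. Its log2 fold change was 0.11 on reverse-strand counts, −0.10 on expected counts and −1.09 on counts of both strands, where it was called lower. Other members, among them Rpl30 and Rpl31, also changed sign between these countings but were called in none of them. Unique counts on the annotated pseudogenes amounted to 0.204% of those on the members, and expected counts to 1.81%.

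A pyrimidine run of at least 10 bases lay within 50 bases of the annotated transcript start on the sense strand in 31 of the 81 members (38.3%), against 18.2% of all 21630 protein-coding genes. For a purine run of that length the shares were 16% and 19.1%. Annotated starts can lie off the used start by some bases, so a missing run says only that it is not in this window.

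Other genes of the ribosome and of translation were described by hand-written lists. Of 8 related ribosomal genes outside the naming rule, 6 were tested and none called at the edgeR FDR (1 at an unadjusted p below 0.05), with a median log2 fold change of −0.011; Rack1, the scaffold on the small subunit, had 0.10. Of 40 initiation, elongation and termination factors, 6 fell (15%, against 4.26% of all genes tested) and none rose (2.75% of all genes), with a median of −0.0047. Among them were Eif4g3, a scaffold of the cap-binding complex (−0.21), Eif3j1 (−0.21) and Eif3a (−0.13) of initiation factor 3, and Eif5b, which joins the subunits (−0.14). Of 20 other messenger RNAs with a 5′ pyrimidine tract and snoRNA host genes none was called (1 at an unadjusted p below 0.05, median −0.030). Of 50 ribosome biogenesis factors 3 fell (6%, near the 4.26% of all genes), with a median of −0.040. These 3 were Gnl3 (nucleostemin, −0.25), Nop10 of the H/ACA particles (−0.19) and Nmd3, which carries the large subunit out of the nucleus (−0.18). In log2 fold change 41 of the 50 lay below 0 and 9 above, beside 7716 below and 7738 above among all genes tested. That difference in signs was not tested. None of 21 genes of RNA polymerase I and its factors was called (4 at an unadjusted p below 0.05, median −0.036). Of the lists without a call in edgeR, DESeq2 called Rack1 among the related genes, 0 of the 20 and 2 of the 21.

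In the list of 25 genes of mTOR signaling to ribosomal protein synthesis 1 rose and 2 fell, with a median of −0.054. That is 12% called, against 7.01% of all genes tested. Ddit4, an inhibitor of mTOR complex 1, was at 41.2 ± 13.9 CPM after training and 76.9 ± 29.1 CPM without (SD, n = 5), a log2 fold change of −0.90 (edgeR quasi-likelihood test, Benjamini-Hochberg adjusted p = 0.0932). Rps6kb2, an S6 kinase, fell by 0.23 on the log2 scale, and Pdcd4, an inhibitor of the helicase eIF4A, rose by 0.27. Mitochondrial ribosomal protein genes, encoded in the nucleus as well, are set beside these. Of 77 tested, 1 was called higher and 17 lower, with a median log2 fold change of −0.11. For the cytosolic genes it was 3 and 1 of 78, with a median of 0.0014. Of all genes tested, 2.75% were called higher and 4.26% lower. That difference between the classes was not tested.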

How the data were processed

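Whole hearts of 5 trained and 5 sedentary mice were sequenced, 1 poly-A directional library per heart, in 1 pool. Per the study's methods, the authors mapped single reads to GRCm39 with STAR 2.7.10a and deposited raw gene counts of reads that map to 1 place, by strand. The authors also deposited RSEM 1.3.3 expected counts, TPM and FPKM per gene, in which shared reads are divided; TPM and FPKM are scaled by length and depth, the FPKM values were not used, and the strand setting of RSEM was not given in the sources used here.

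Reverse-strand counts were used, 94.9% to 95.6% of the counts on either strand. Multimapping reads (17.9% to 19.2% of reads), reads on no gene (4.15% to 4.89%) and ambiguous reads (0.940% to 0.998%) stayed out of library sizes. Symbols and positions came from GENCODE M39, where 56017 of 56748 identifiers matched. Tests on counts used edgeR 4.0.16 under R 4.3.3 over all genes, with TMM factors, its filterByExpr filter, the quasi-likelihood test, Benjamini-Hochberg adjustment and an FDR below 0.1. The SE beside an edgeR fold change was derived from that test. It is the absolute log2 fold change divided by the square root of the F statistic. Expected counts were rounded. Scores used a prior count of 2. Paralog ratios took an exact permutation test, two-sided. The edgeR and DESeq2 tests were tried on simulated counts with known changes, and the permutation test on a constructed case of separated groups. Exact copies of 100-base windows were searched in the genome on both strands.

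Named with values were the paralog pairs, the members called, the 3 highest and 3 lowest fold changes at a mean of at least 1 CPM, the stalk genes and Rps6, the 5 highest and 3 lowest tested TPM, and the 5 largest ratios of expected to unique counts. The members and lists were chosen with earlier results of these data known. Alternatives were DESeq2 1.42.0, other scalings and filters, RSEM or both-strand counts, thinning, length or GC trends removed by loess with a span of 0.3, an atrial covariate, the mouse number as a block and each heart left out. The labels do not say how the mouse numbers were given. Results of marker lists and alternatives that changed nothing are given as counts.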

Additional observations from a re-analysis of the deposited data

Results flagged for a closer look

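Among 74 sets of 5 hearts examined (named genes, paralog ratios, the share of counts and the mean levels of the members), 5 held a heart far from the other 4, and chance gives about 1 in 20. Rps14 was at 208.6 CPM in training heart 1, with the other training hearts at 176 to 180.5 CPM. In sedentary heart 5, Rpl15 was at 59.5 CPM (others 65.0 to 65.7 CPM) and Rplp2, of the stalk, at 106.6 CPM (others 126 to 128 CPM). Sedentary heart 5 also had the lowest mean centred log2 CPM of its group over the 78 members, −0.0651, with the others at 0.0116 to 0.0416, and over the small subunit genes alone, −0.0735, with the others at 0.0158 to 0.0386. The mean over the 78 members includes Rpl15, Rplp2 and the small subunit genes. Without sedentary heart 5, Rpl3 and Rps14 were called higher and Rps13 lower. Rpl15 was not called there, but it was called in only 1 of the 10 fits with 1 heart removed.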

How the results depend on the processing

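Over 24 edgeR or DESeq2 alternatives at an FDR below 0.1, Rpl3 was called in 23 (log2 fold change over all 24 of 0.19 to 0.35, adjusted p 0.000716 to 0.392), Rps14 in 20, Rps13 in 19 and Rpl15 in 10, each with the same sign in all 24. Members called higher and lower, 3 and 1 here, were 5 and 1 with DESeq2, 9 and 0 with library totals, 2 and 2 without a filter, 1 and 1 on RSEM counts, 3 and 2 on both strands (Rpl23a then at −1.09), 17 and 1 with the length trend removed, 0 and 0 with the atrial covariate and 2 and 0 at an FDR below 0.05. Of all genes, 1.28% and 2.27% were called higher and lower without a filter, and 2.72% and 4.05% on both strands. Shares of all genes at an FDR below 0.05 are not given here. Without training hearts 1 and 5, chosen after seeing the data, 1 was higher and 2 lower. With 1 heart left out, 1 to 3 members were higher and 0 to 5 lower, beside 1.21% to 4.21% and 1.91% to 5.37% of all genes. Members called lower were 5 without training heart 1 and 2 without sedentary heart 1 (all genes 3.98% and 5.37%). They were 0 without training heart 4, sedentary heart 3 or sedentary heart 4 (all genes 2.07%, 1.91% and 2.55%). The cause was not tested. The median log2 fold change of the members ran from −0.055 without training heart 1 to 0.058 with the length trend removed.

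Same-numbered hearts hardly deviated together (r −0.097 to 0.159). Hearts with different numbers were not compared, so these values cannot decide whether the numbers pair the hearts. With the mouse number as a replicate block, 2 members were higher and 3 lower (all genes 3.03% and 4.33%). The Rpl3l to Rpl3 log2 ratio, −0.46, was lower in training in 4 of 5 same-numbered couples (sign-flip p = 0.125 by exact permutation, smallest possible 0.0625). The share of counts on members was 1.11% in training and 1.07% in sedentary hearts on RSEM counts, and 1.28% and 1.24% without mitochondrial DNA genes. Depth limits only the rarest members: 3 counts correspond to 0.0761 to 0.102 CPM. Separate animals were sampled, so the tests set group differences against the spread between hearts. Per-gene values rest on RNA alone.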
